A study of Anopheles gambiae with 18 samples.

Results

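The transcripts described here are *Anopheles gambiae* midgut transcripts annotated with words for proteases and peptidases, and a few encode partner subunits of proteases. They were chosen by words in their annotation: trypsin, protease, peptidase or proteinase in the name, on the male versus female or the gut compartment sheet of the study's gene list, with inhibitors, CLIP-domain proteases, proteasome subunits, serpins and a few named transcripts left out. This rule took 73 of the 14197 transcripts on the array. The transcripts left out by name include trypsins and carboxypeptidases. Another 47 protease transcripts, which stand only on the third sheet of that list, of cardia against posterior midgut, are not members. No measured ratio entered the rule itself, but the compartment sheet lists only transcripts whose ratio reached 2 in a compartment on these arrays. Of the 73 members, 37 were on the male versus female sheet, which lists transcripts detected in midguts whether or not they differed, and 3 of these were on the compartment sheet as well. The other 36 were on the compartment sheet only. For those 36 and for the 3 on both sheets, the comparisons of a compartment with whole midgut are given as a description. Transcripts are named by EN and the last digits of the array's transcript identifier.

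All midguts came from Keele strain mosquitoes, a laboratory strain, kept on sugar solution. There were 6 comparisons with 3 arrays each: midguts of 4-day-old males against those of 4-day-old unfed females, and, within unfed females, the cardia, the anterior, the anterior-posterior and the posterior-posterior compartment against the whole midgut, and the cardia against the posterior midgut. The age of the females on 1 of the anterior arrays is not given in the labels. The compartments were separated by dissection, and the number of midguts per array is not given in the sources used here. The methods call the 3 assays of each experiment biological replicates, while the labels do not say from which dissections each array came. Each array gave a ratio of 2 dyes, the first-named sample in Cy5 and the other in Cy3, without a dye swap, so a dye effect of a probe cannot be told apart from a difference between tissues. In whole compartments, fewer cells of a type and less RNA per cell cannot be told apart either.

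In the mosquito gut, endopeptidases of the trypsin and chymotrypsin fold cut dietary proteins inside the chain. Carboxypeptidases and membrane-bound aminopeptidases then remove residues from the ends. Most of this digestion takes place in the posterior midgut, where blood is stored, while the cardia is a valve-like organ at the entrance of the gut that also secretes. Serine proteases of the same fold act outside digestion too, in immune and developmental cascades. Other peptidases work inside the cell, in mitochondria, at the endoplasmic reticulum and at the proteasome. By annotation the members held 30 serine proteases, 5 aminopeptidases N, 6 other exopeptidases, 1 aspartic protease, 6 extracellular metalloproteases, 5 cytosolic peptidases, 4 mitochondrial proteases, 3 proteases of the secretory pathway and membranes, 3 ATPases of the proteasome cap, 1 deubiquitinase, 4 retroelement polyproteins and 5 peptidases whose name gave no class. EN016658, named only as a eukaryotic or viral aspartic protease, was counted with the retroelement polyproteins.

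Values are log2 ratios after each array was centred on the median of the male versus female sheet, which holds 1937 transcripts, and a transcript was called where its mean was at least 2-fold from 0 with an adjusted p under 0.05 in limma, adjusted over all transcripts tested. The median of that sheet lay between -0.19 and 1.31 log2 units above the median of all transcripts, depending on the array. Centring on all transcripts instead took the median of the 73 members from -0.32 to 0.35 in the male versus female comparison and from 0.05 to 0.93 in the anterior-posterior comparison. The order of transcripts within an array does not depend on this choice, so ranks are given beside the values. The 3 cardia versus whole arrays correlated with one another between -0.10 and 0.10, against 0.10 to 0.64 for the arrays of any other comparison, and only 52 of the 73 members had a value on all 3 of them. Whether related transcripts bind each other's probes was not tested.

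**Figure D1:**
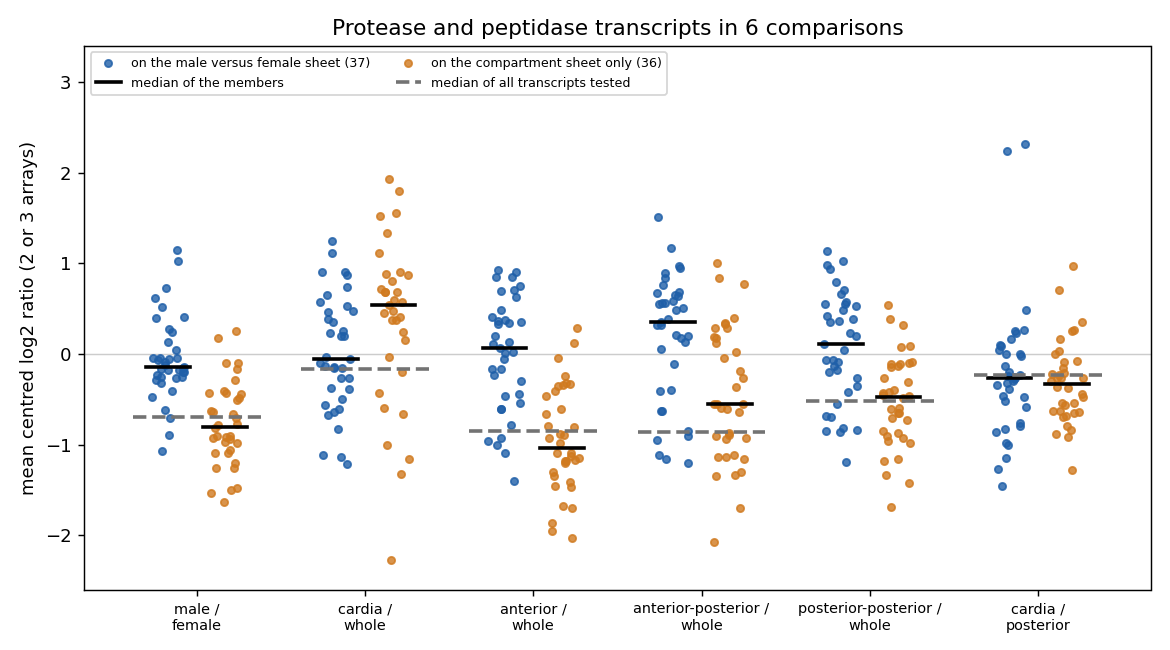
Mean centred log2 ratio of each member (vertical axis) in the 6 comparisons (horizontal axis), with members on the male versus female sheet in blue, members on the compartment sheet only in orange, group medians as black lines and the median of all transcripts tested as a dashed grey line. A pair of members stands alone above 2 in the cardia versus posterior comparison, and the blue group lies above the orange one in the sex, anterior, anterior-posterior and posterior-posterior comparisons.

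In the cardia, a pair of serine proteases stood far above the other members. EN014152 and EN015802 were both higher in the cardia than in the posterior midgut, by 4.71-fold and 4.98-fold. EN014152 had log2 ratios of 1.92, 2.35 and 2.44 on the 3 arrays, with a mean of 2.24 ± 0.27 (SD, n = 3) and a limma adjusted p of 0.0152. EN015802 had 1.92, 2.41 and 2.62, with a mean of 2.32 ± 0.36 (SD, n = 3) and a limma adjusted p of 0.0254. No array of either transcript overlapped any array of another member in this comparison: the next mean was that of EN020941, a peptidase of unstated class, at 0.98 ± 0.55, and the highest single array of any other member was 1.68, for EN005363. Among all 14191 transcripts tested, EN015802 ranked 8 and EN014152 ranked 10 from the top. These were the only 2 of the 73 members called in this comparison, beside 0.225% of all transcripts called higher and 0.0493% called lower. Both stayed called when arrays were centred on all transcripts or not centred. In a fit of the 3 arrays alone both lost the call (limma adjusted p = 0.138 each). Neither passed without 1 of the replicates: the adjusted p ranged from 0.109 to 0.647 for EN014152 and from 0.0744 to 0.742 for EN015802, with means of at least 2.14 throughout.

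In the comparisons with whole midgut neither transcript was called. Against whole female midgut, EN015802 was at 0.94, 0.67 and 2.14 in the cardia, above 0 on each array, and EN014152 was at 0.77, -0.69 and 1.53, so that its arrays fell on both sides of 0. In the anterior compartment EN015802 was at 1.09, -0.20 and 1.66 and EN014152 at -0.20, 0.01 and -0.50. In the posterior-posterior compartment EN014152 was below 0 on every array, at -0.06, -1.14 and -1.23, and EN015802 above 0 on every array, at 0.64, 0.27 and 0.20. In the anterior-posterior compartment EN014152 was at -0.72, -1.37 and 0.21 and EN015802 at 1.00, 0.26 and -1.59, each on both sides of 0. No test of a difference between the 2 transcripts was run. Differences between compartments were tested as contrasts of the same fit: for cardia minus anterior-posterior, EN014152 had a difference of 1.16 (limma adjusted p = 0.225) and EN015802 of 1.36 (limma adjusted p = 0.207), and neither passed, beside 1.38% of all transcripts called. For cardia minus posterior-posterior the differences were 1.35 (limma adjusted p = 0.343) and 0.88 (limma adjusted p = 0.585), above 0 but smaller than the 2.24 and 2.32 of the direct comparison.

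Both transcripts had means above 0 in male against female midgut, where no member was called. Among the 73 members, the 3 highest means with 1 sign in male against female midgut belonged to EN024348, a trypsin family protease, at 1.83, 1.48 and 0.15, to EN014152 at 1.24, 1.20 and 0.66, and to EN015802 at 0.68, 1.20 and 0.30. All 9 of these array values were above 0. EN024348 had a mean of 1.15 ± 0.89 and EN014152 of 1.03 ± 0.32 (SD, n = 3 each), with limma adjusted p of 0.0717 and 0.0784, so neither passed with the centring used here. EN015802 had a mean of 0.73 ± 0.45 and a limma adjusted p of 0.228. With arrays centred on all transcripts EN024348 and EN014152 passed, at 1.83 (limma adjusted p = 0.0140) and 1.70 (limma adjusted p = 0.0362), and EN015802 did not, at 1.40 (limma adjusted p = 0.190). Of the 3 salivary gland transcripts 2 had means at least 2-fold higher in males and 1 at least 2-fold lower, from -1.28 to 1.60 with a median of 1.23, and none was called. The medians of the muscle, cuticle and hemocyte transcripts were 0.0063, -0.46 and -0.48. The part of these tissues in the male values was not tested. EN024348, EN014152 and EN015802 ranked 48, 67 and 205 of 14197 transcripts. In the cardia against whole midgut EN024348 was below 0 on each array, at -0.40, -0.63 and -1.46, and its range overlapped that of EN014152.

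**Figure D2:**
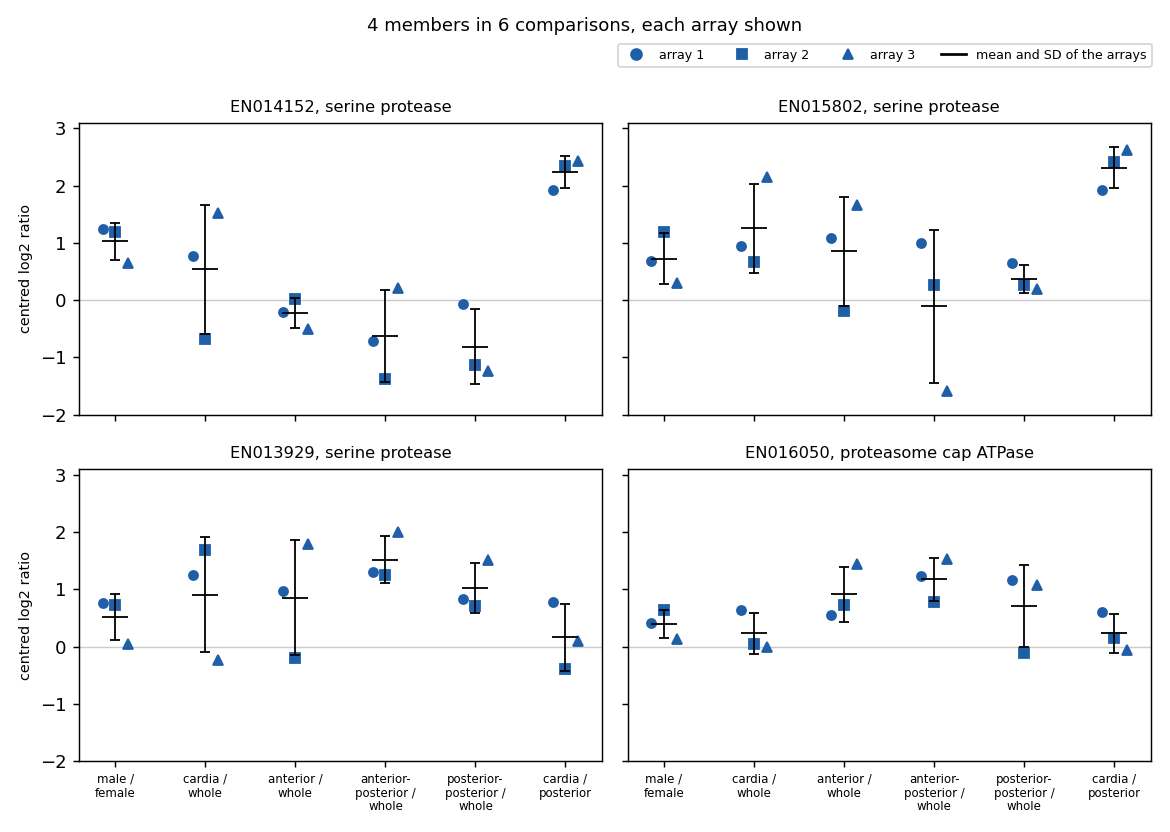
Centred log2 ratio (vertical axis) of 4 members in the 6 comparisons (horizontal axis), with each array as a symbol and the mean and SD of the arrays as black bars. EN014152 and EN015802 sit near 2.24 and 2.32 in cardia against posterior midgut, while EN013929 and EN016050 are highest in the anterior-posterior compartment.

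Muscle, salivary gland, cuticle and hemocyte transcripts were set beside these values. They were taken from all sheets of the gene list by name alone. The words were myosin without phosphatase, salivary, cuticle, and prophenoloxidase or hemocyanin. In cardia against posterior midgut, 1 of 16 cuticle transcripts was called higher, and none of the 22 muscle, 3 salivary gland or 4 hemocyte transcripts was called in limma. Over all transcripts 0.225% were called higher. In the same order, their medians were -0.27, -0.47, 0.64 and -0.28, the highest single means were 1.61, 1.06, 1.06 and 1.63, and 2, 3, 0 and 1 of them had an unadjusted p under 0.05 with a 2-fold mean, beside 5.09% of all transcripts. No marker mean reached that of EN014152 or EN015802. Ratios give no level of a marker, so summed levels could not be had, and the part of these tissues in the results was not tested.

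At the other end, 4 serine proteases of the male versus female sheet were at least 2-fold lower in the cardia than in the posterior midgut, without passing the adjusted test, beside 4.97% of all transcripts with such a mean. EN028603 was at -1.49, -1.45 and -1.42, with a mean of -1.45 ± 0.03 (SD, n = 3; limma adjusted p = 0.183). It ranked 14055 of 14191 transcripts. EN010335 was at -1.12, -1.18 and -1.49 and EN021783 at -1.25, -0.81 and -1.36. The values of EN010335 average 2 spots that disagreed. The first spot was at -2.56, -1.69 and -1.46 and the second at 0.31, -0.68 and -1.52, on both sides of 0. EN010401 was at -1.65, -0.66 and -0.68. With spots averaged, all 12 values were below 0 and none overlapped the arrays of EN014152 or EN015802. The comparisons with whole midgut did not share this direction for 2 of them: cardia minus anterior-posterior and cardia minus posterior-posterior were 0.57 and 0.78 for EN010335 and 1.36 and 0.89 for EN021783. For EN028603 they were -0.27 and -0.61 and for EN010401 -0.02 and -0.02, and none of these 8 differences passed in limma. Over the 18 serine proteases of that sheet, 5 had means above 0 and 13 below, with a median of -0.32 beside -0.23 over all transcripts, so that the serine proteases as a list lay close to the other transcripts.

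**Figure D3:**
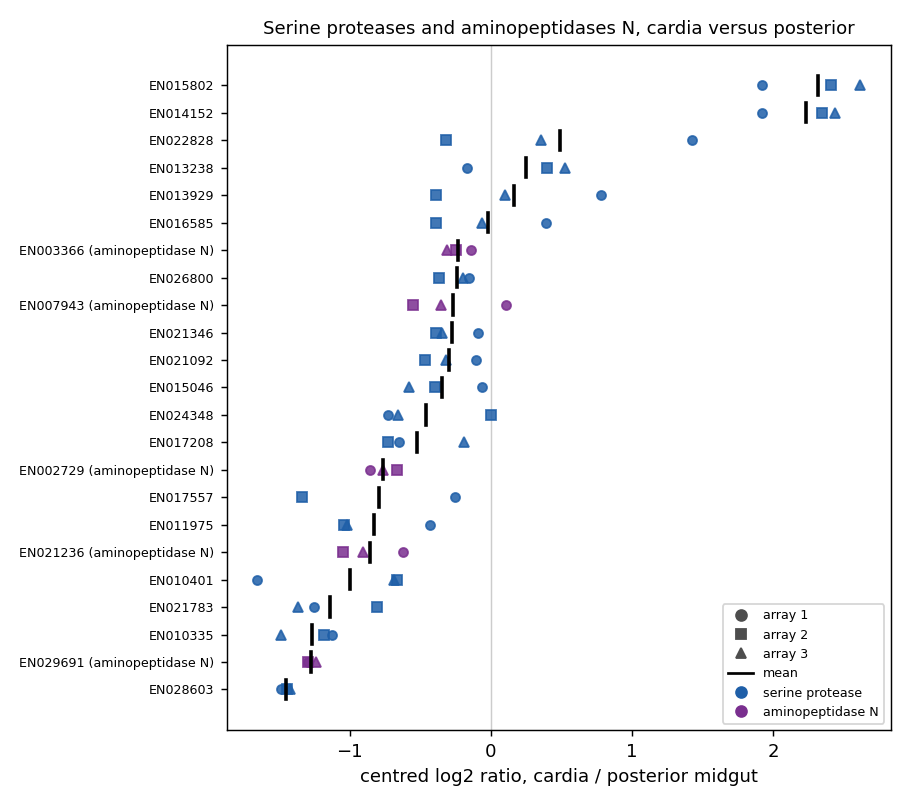
Centred log2 ratio of cardia to posterior midgut (horizontal axis) for the 18 serine proteases of the male versus female sheet and the 5 aminopeptidases N (vertical axis, ordered by mean), with each array as a symbol and the mean as a black bar. EN015802 and EN014152 lie between 1.92 and 2.62, EN028603 near -1.45, and all 5 aminopeptidase N means are below 0.

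Within the female midgut, the anterior-posterior compartment gave the most calls among members. Of the 73, 2 were higher and 5 lower than in whole midgut, beside 1.21% called higher and 24% called lower over all transcripts. Both transcripts called higher were on the male versus female sheet. EN013929, a serine protease, had log2 ratios of 1.31, 1.25 and 2.00, with a mean of 1.52 ± 0.42 (SD, n = 3; limma adjusted p = 0.0215), and ranked 17 of 14194 transcripts. EN016050, an ATPase of the proteasome cap that unfolds substrates, had 1.23, 0.77 and 1.53, with a mean of 1.17 ± 0.38 (SD, n = 3; limma adjusted p = 0.0228). Every array of both was above 0. Both also passed with arrays centred on all transcripts, at 2.40 and 2.05, and neither passed uncentred, at 0.54 and 0.19. Without replicate 1 or 2 the adjusted p was 0.290 or 0.222 for each, and without replicate 3 EN013929 kept its call with an adjusted p of 0.0155, while EN016050 fell just under 2-fold.

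The count of lower members depended on the centre of the arrays. The 5 called lower were EN021783 of the male versus female sheet and EN007321, EN016337, EN026219 and EN026509 of the compartment sheet. With arrays centred on all transcripts none of the 73 was called lower and 20 were called higher, while over all transcripts the calls went from 172 higher and 3413 lower to 1098 higher and 58 lower. EN021783 was at -2.21, -1.12 and -0.14, with a mean of -1.16 (limma adjusted p = 0.0490), and at -0.28 with the other centre. Its rank was 9901 of 14194, in the lower middle of all transcripts, whereas EN013929 and EN016050 were near the top. The 37 members of the male versus female sheet had a median of 0.35 in this comparison and the 36 of the compartment sheet -0.55, beside -0.86 over all transcripts.

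EN013929 was also among the highest members in the other compartments. It was at 0.83, 0.72 and 1.52 in the posterior-posterior compartment, with a mean of 1.02 ± 0.43, and at 0.97, -0.20 and 1.79 in the anterior one. In cardia against posterior midgut it was at 0.78, -0.39 and 0.10, on both sides of 0. In the posterior-posterior compartment it was accompanied by 2 other serine proteases, EN021346 at 0.83, 1.37 and 1.21 and EN013238 at 0.83, 1.07 and 1.06, and by the aminopeptidase N EN003366 at 0.83, 1.08 and 0.92. These 4 were the highest members there, all above 0 on every array. Their equal first values are a feature of that array: 96 of its features, 62 of them on the male versus female sheet, shared a deposited ratio of 0.999, and these 4 members were among them. On the second anterior array 115 features shared a ratio of 1.000, which gave the -0.20 of EN013929 and that of EN015802. EN013238 carried such a shared ratio near 1 on 6 of its 18 arrays, more than any other member, and over all members 35 values did. What set these values was not tested.

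No member was called in the posterior-posterior comparison by limma, where 0% of all transcripts were called in either direction, although 8 members had an unadjusted p under 0.05 with a 2-fold mean, beside 12.1% of all transcripts. By the methods' t-test 2 members passed unadjusted and none after adjustment. The lowest members were EN007334, another ATPase of the proteasome cap, at -0.76, -1.25 and -3.05, EN016478, a serine protease named for gastrulation defective, at -0.79, -0.93 and -2.53, and the trypsin family protease EN016337 at -1.02, -0.92 and -2.05. In each of these the third array was the farthest from 0. Differences between compartments were tested too. Neither the anterior compartment against the mean of both posterior ones nor the anterior-posterior against the posterior-posterior compartment gave a call among the 73 members in limma, with 5 and 6 members at an unadjusted p under 0.05 and a 2-fold difference, beside 1.85% and 3.75% of all transcripts, and 0% of all transcripts called in either.

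In the anterior compartment 3 members were called lower and none higher, beside 5.85% and 0.232% of all transcripts. Only EN010335, a serine protease, was on the male versus female sheet. It was at -2.25, -1.51 and -0.44, with a mean of -1.40 ± 0.91 (SD, n = 3; limma adjusted p = 0.0487). Its 2 spots on the array disagreed in size, with means of -1.81 and -0.99 in this comparison, and the call was lost without replicate 1 (limma adjusted p = 0.243), without replicate 2 (limma adjusted p = 0.326) and with arrays centred on all transcripts, where the mean was -0.61. The other 2, the ADAM metalloprotease EN005363 at -1.43, -1.21 and -3.22 and the peptidase EN028759 at -1.80, -0.98 and -2.26, were on the compartment sheet. They too lost the call without replicate 1 or 2 and with the other centre. Among members above 0 on all 3 anterior arrays, the highest was EN018480, at 0.88, 0.35 and 1.57. It is a subunit of the signal peptidase that removes signal peptides at the endoplasmic reticulum. Next were EN016050 at 0.56, 0.72 and 1.45, and EN010942, a cytosolic dipeptidase, at 0.41, 0.67 and 1.19. By mean alone EN010942 ranked 5 among the members there. EN018480 and EN016050 passed only with arrays centred on all transcripts, at 1.72 and 1.70.

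The aminopeptidases N are zinc enzymes of the brush border. Their means lay near the centre used here between the sexes and below 0 in cardia against posterior midgut. In male against female midgut all 5 had means between -0.48 and -0.15, and none was called. Of all transcripts 89.1% were below 0 there, with a median of -0.70. With arrays centred on all transcripts all 5 changed sign, and their median went from -0.18 to 0.50. In cardia against posterior midgut all 5 had means below 0, from -1.28 to -0.23 with a median of -0.76, beside 73.5% of all transcripts below 0. EN029691 was at -1.30, -1.29 and -1.24 (mean -1.28 ± 0.03, SD, n = 3; limma adjusted p = 0.313), although its differences between the comparisons with whole midgut ran the other way, at 0.82 for cardia minus anterior-posterior and 1.31 for cardia minus posterior-posterior. For the other 4 aminopeptidases N these differences lay between -1.71 and 0.27, and none of the 10 passed in limma. EN021236 was at -0.62, -1.05 and -0.91, and EN002729 at -0.86, -0.66 and -0.76. EN003366 was at -0.14, -0.25 and -0.31, below 0 but nearer to it, and EN007943 at 0.11, -0.55 and -0.35, on both sides. With arrays centred on all transcripts the means of EN003366 and EN007943 were -0.02 and -0.06 and that of EN029691 -1.07. The 4 aminopeptidases N of the male versus female sheet were above 0 in the anterior-posterior compartment, at 0.22 to 0.65, and none was called there. Of the 37 members of that sheet, on whose median the arrays were centred, 26 had means above 0 there, while 84.5% of all transcripts were below 0.

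Other enzymes that cut from the chain end, and the aspartic protease, gave no call outside the compartment sheet. The serine carboxypeptidase EN004895 was at 0.55, 0.18 and 1.38 in the anterior, 0.41, 0.47 and 1.16 in the anterior-posterior and 1.36, -0.31 and 0.60 in the posterior-posterior compartment. In cardia against posterior midgut it was below 0 on each array, at -0.30, -0.32 and -0.80. The aspartic protease EN013568, of the pepsin and cathepsin D family and on both sheets, was at 1.04, 1.00 and 0.64 in the anterior-posterior and 0.48, 0.60 and 0.82 in the anterior compartment, above 0 on every array. In male against female midgut it was at 0.19, -0.16 and -0.15, close to the centre used here on all 3 arrays. With arrays centred on all transcripts its mean was 0.64. The serine protease EN017557, also on both sheets, had arrays far apart: 0.90, -0.06 and 2.07 in the anterior-posterior and -1.04, 0.12 and -1.63 in the posterior-posterior compartment.

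Among the extracellular metalloproteases, which shed surface proteins or cut matrix, only the meprin EN019623 was on the male versus female sheet. It was at -1.39, -1.27 and -0.66 in the cardia against whole midgut (mean -1.11 ± 0.39, SD, n = 3; limma adjusted p = 0.160) and at 1.03, 0.52 and 0.11 in the posterior-posterior compartment, below 0 on every array of the first and above 0 on every array of the second. The other 5 were the ADAM transcripts EN003886 and EN005363, the ADAMTS EN011930, the matrix metalloprotease EN021240 and the zinc peptidase EN026902. In cardia against posterior midgut all 6 means lay between -0.57 and 0.35, and none was called. The differences of EN019623 between the comparisons with whole midgut were larger, at -1.78 for cardia minus anterior-posterior and -1.66 for cardia minus posterior-posterior. Neither passed in limma. In male against female midgut all 6 had means below 0, as did 89.1% of all transcripts. EN021240, at -0.69, -1.04 and -3.16, EN005363, at -0.74, -1.21 and -2.64, and EN016658, named as a eukaryotic or viral aspartic protease, at -0.54, -1.60 and -2.34, had the lowest means of all members between the sexes. In each of them the third array was the lowest, and none was called.

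**Figure D4:**
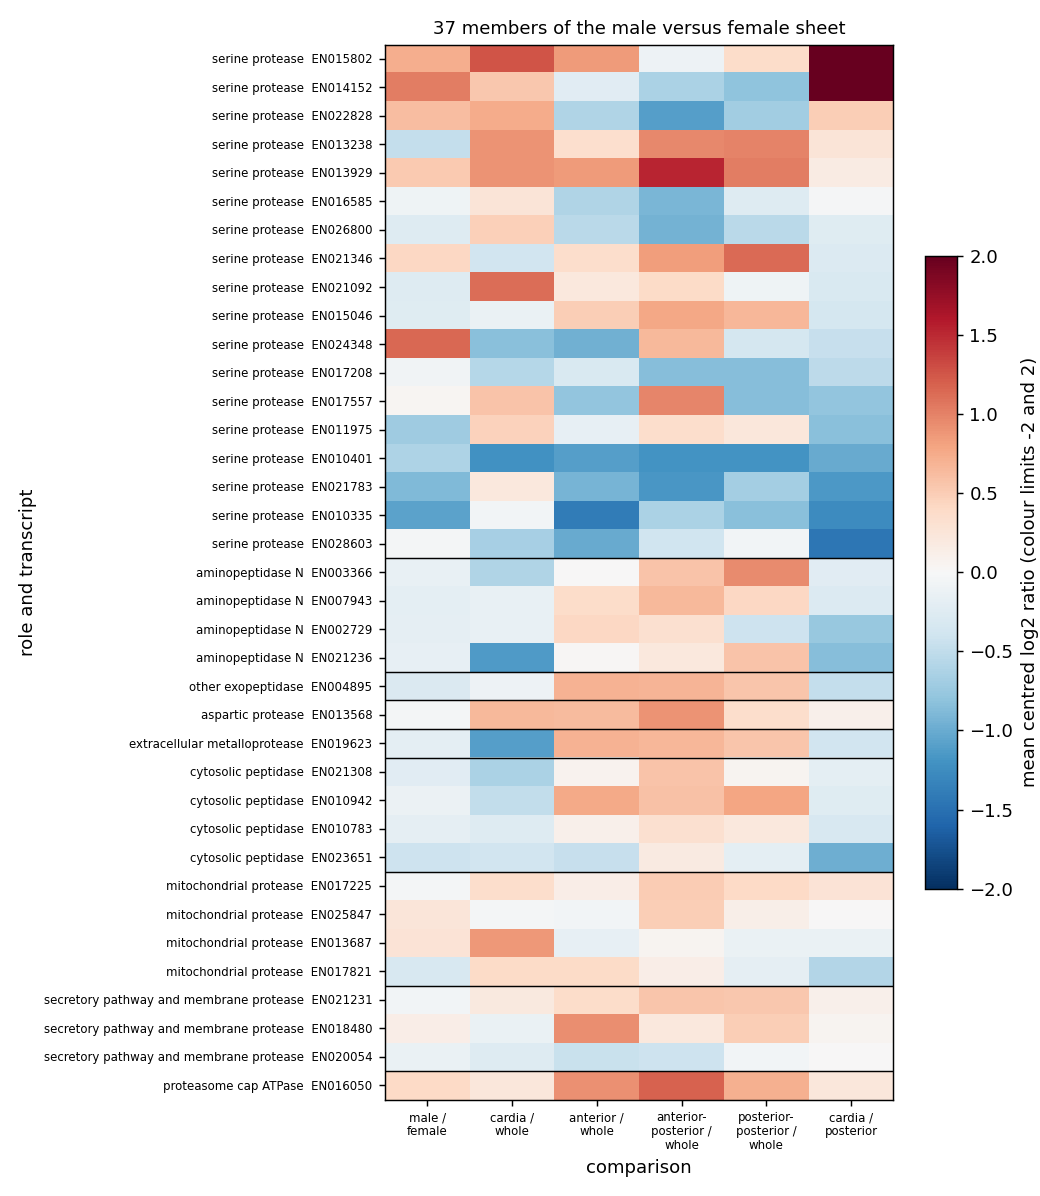
Mean centred log2 ratio (colour, from blue for -2 to red for 2) of the 37 members of the male versus female sheet (rows, grouped by role) in the 6 comparisons (columns). The serine proteases span the range from EN015802 at 2.32 to EN028603 at -1.45 in cardia against posterior midgut, while the mitochondrial, secretory and cytosolic members stay paler.

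Among the peptidases that work inside the cell, the mitochondrial, secretory and cytosolic groups gave no call in any comparison. The 4 mitochondrial proteases, among them Lon and 2 ClpX chaperone subunits of the Clp protease, had means between -0.32 and 0.28 in male against female midgut and between -0.58 and 0.27 in cardia against posterior midgut. EN025847, a ClpX transcript on both sheets, was at -0.04, 0.10 and -0.06 in the latter. Its anterior-posterior values, at -1.17, 0.33 and 2.30, lay far apart. The 3 secretory pathway and membrane proteases had means between -0.14 and 0.13 between the sexes and between 0.00 and 0.09 in cardia against posterior midgut. The 4 cytosolic peptidases of the male versus female sheet, which trim methionine or split small peptides, had means below 0 in cardia against posterior midgut, beside 73.5% of all transcripts. Over all 5 cytosolic peptidases the median was -0.32, beside -0.23 over all transcripts. With arrays centred on all transcripts it was -0.11. Among the 4 of the male versus female sheet, values differed in size. The prolidase EN023651 was the lowest of them at -0.70, -1.03 and -1.21.

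The 3 proteasome cap ATPases differed in sign. EN016050 was above 0 on every array in male against female midgut, at 0.40, 0.64 and 0.14. EN007334 was at -1.10, -0.47 and -1.36 and EN017105 at -0.72, -1.04 and -0.69, both below 0 on every array there, although none of the 3 was called. In the anterior-posterior compartment EN007334 was at -0.85, -0.34 and 1.73 and EN017105 at -1.27, -1.34 and 0.68, both on either side of 0. The 13 transcripts named as proteasome subunits, which are not members, had a median of 0.30 in that compartment with 2 called higher. Over all transcripts the median was -0.86 and 1.21% were called higher. The remaining intracellular member, the deubiquitinase EN001119, was between -1.41 and 0.69 in its 6 means and was not called.

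Between the sexes no member was called at all in limma, beside 0.204% of all transcripts called higher and 7.17% called lower. Of the 73, 13 had an unadjusted p under 0.05 with a 2-fold mean, beside 27.9% of all transcripts, and by the methods' t-test 2 did, with none after adjustment. The 37 members of the male versus female sheet had a median of -0.14, with 2 means at least 2-fold higher and 1, that of EN010335, at least 2-fold lower, beside 0.549% and 30.6% of all transcripts. Arrays were centred on the median of this sheet, so that 0 is the middle of this sheet and not of all transcripts. The 36 of the compartment sheet had a median of -0.80, with 34 of 36 means below 0, beside a median of -0.70 and 89.1% below 0 over all transcripts. EN010335 was at -0.45, -0.84 and -1.90, all below 0, with a mean of -1.07 ± 0.75 (SD, n = 3). With arrays centred on all transcripts, 36 of the 73 members changed sign, so that a direction between the sexes can be read only for members far from 0.

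The members of the compartment sheet had larger spread than those of the male versus female sheet in every comparison. The median SD over the arrays was 0.53 against 0.32 between the sexes, 0.97 against 0.43 in the posterior-posterior compartment and 0.48 against 0.28 in cardia against posterior midgut. Their ratios were also more often simple fractions. A ratio of small whole numbers can arise where both dyes gave only a few units above background. Among ratios under 1, those matching a quotient of whole numbers whose divisor is at most 10 made up 24.8% of the values of these members, 9.80% of those of the male versus female sheet and 20.2% of all transcripts, beside 3.14% where ratios were shifted away from such fractions. In cardia against posterior midgut the shares were 46.4%, 5.88% and 34.5%. No intensities were used here, so that the part of dim signal in the spread was not tested.

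**Figure D5:**
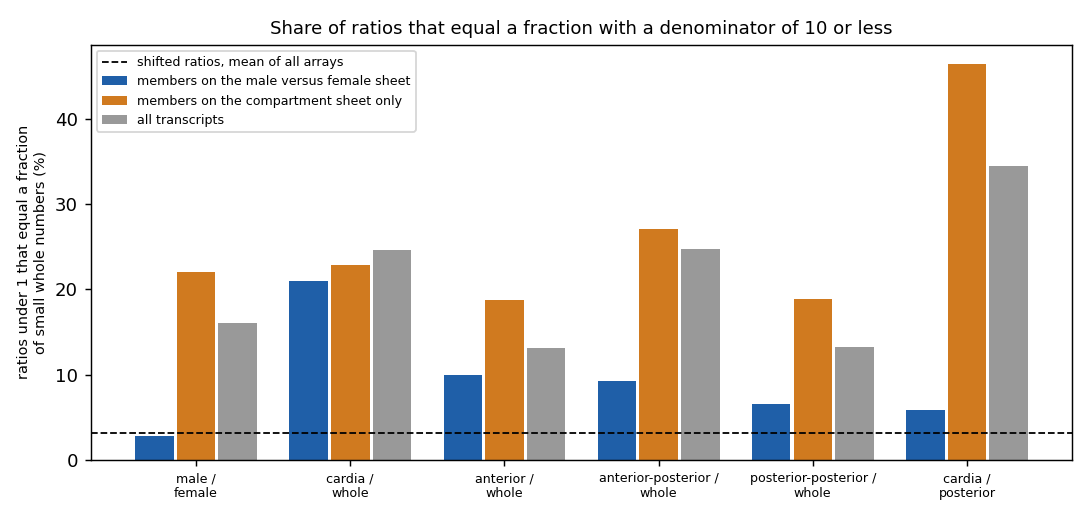
Percentage of ratios under 1 matching a quotient of whole numbers whose divisor is at most 10 (vertical axis) in the 6 comparisons (horizontal axis), for members on the male versus female sheet (blue), members on the compartment sheet only (orange) and all transcripts (grey), with the share of shifted ratios as a dashed line at 3.14%. The orange bar is above the blue one in every comparison, by the least in cardia against whole midgut, where the shares were 22.9% and 21.0%.

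Of the 7 compartment sheet members called in a comparison, 4 were serine proteases of the trypsin family. EN015040 was the 1 member called in the cardia against whole midgut, beside 0.44% called higher and 0.966% called lower over all transcripts. It was at 1.63, 1.51 and 2.25, with a mean of 1.80, and at -0.42, -1.09 and 0.39 in cardia against posterior midgut, on both sides of 0. EN016337 was at -1.69, -1.12 and -1.11 in the anterior-posterior compartment, and had only 2 values in the cardia. EN026219, a serine carboxypeptidase, was at -1.60, -1.70 and -0.68, EN026509 at -1.35, -1.53 and -0.46, and EN007321 at -4.07 and -0.09, with no value on the second array, so that its mean of -2.08 stands between values that lie far apart. The highest mean in the cardia was that of the proteasome cap ATPase EN017105, 1.93, from 2 arrays at 1.58 and 2.29. The lowest was that of the trypsin family protease EN013534, at -4.12, -1.51 and -1.17. Of the 5 contrasts added between compartments, only cardia minus anterior and cardia minus anterior-posterior held calls among the members, EN015040 and EN016337 in each, beside 0.288% and 1.38% of all transcripts called, and the cardia minus posterior-posterior contrast had none, beside 0.0649%. Since these transcripts entered the sheet by their ratios in the same compartments, the calls and contrasts are a description and no test.

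The protease domain of a retroelement polyprotein cuts the element's own products. Of the 4 members grouped as such, EN016658 is named only as a eukaryotic or viral aspartic protease. All 4 were compartment sheet members. Their 4 means were below 0 between the sexes and in the anterior compartment, with medians of -0.72 and -1.15, close to the -0.70 and -0.85 of all transcripts, of which 89.1% and 87.1% were below 0. EN020157, a copia element, was the lowest in the anterior compartment at -2.33, -1.30 and -1.96. None was called in any comparison.

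A set of digestive enzymes outside the list was put beside the members: the trypsins annotated TRY3, TRY4, TRY5 and TRY7 and the carboxypeptidases EN020553 and EN021052. The trypsin annotations hold none of the words of the rule. Of these 6 trypsins and carboxypeptidases, 3 were called higher in the anterior-posterior compartment, beside 1.21% of all transcripts. All 6 had means above 0 in the posterior-posterior compartment, with a median of 1.22. There 83.9% of all transcripts were below 0, while 20 of the 37 members of the male versus female sheet were above 0. EN006721, EN018384 and EN021052 had the same value of 0.83 on the first posterior-posterior array, which is the shared ratio of 0.999. On the first anterior-posterior array EN006721 and EN018384 had the same value of 1.04, a ratio of 1.001 that 28 features shared. In cardia against posterior midgut the median of the 6 was -0.34 and none was called. Over the 47 proteases that stand only on the third sheet, that of cardia against posterior midgut, 10 were called lower in the anterior-posterior compartment, beside 24% of all transcripts, and the median was -0.84, near the -0.86 of all transcripts. The 7 serpins, inhibitors of serine proteases, had a median of 0.23 in cardia against posterior midgut with none called and 2 at an unadjusted p under 0.05 with a 2-fold mean. Over all transcripts the median was -0.23, and 5.09% had such a p and mean.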

How the data were processed

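Midgut RNA was hybridised on 18 two-colour arrays of 15495 features, and the authors deposited log2 ratios of Cy5 to Cy3 per feature. The methods name a signal threshold and LOWESS normalization, but the deposited log2 values had unequal array medians, so neither step was taken as done, and no intensities were used here. A value of 16.6096, the log2 of 100000, in 120 spots was treated as missing. Spots of a transcript were averaged, and each array was centred on the median of the male versus female sheet (1937 transcripts). The members and lists were chosen with earlier results of these data known. From the study's gene list only identifiers and names were read.

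limma 3.58.1 in R 4.3.3 fitted the 18 arrays together, with 1 mean per comparison and a shared spread (prior degrees of freedom 7.04). Transcripts with values on at least 2 arrays were tested, p-values were adjusted by Benjamini-Hochberg over all of them, and calls needed a 2-fold mean and an adjusted p under 0.05. Another 5 contrasts between compartments and a fit without the cardia versus whole arrays were added after the values were seen. The precision is limited by 3 arrays per comparison. The script was tested on simulated data. Arrays of equal number did not pair: their deviations correlated between -0.36 and 0.28 over 45 pairs. Members named are those called, the 3 highest and 3 lowest per comparison with 1 sign on 3 arrays, those on both sheets, and members of roles with 8 or fewer. Alternatives were the centring, the tested set, the arrays required, a replicate block, each replicate left out, the arrays of a comparison alone and the methods' t-test. No sequence, position or current gene name was used here for these identifiers. Figures were drawn with matplotlib 3.10.9.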

Additional observations from a re-analysis of the deposited data

Results flagged for a closer look

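The difference between compartments reached the size and spread that a call requires for 2 members, both trypsin family serine proteases of the compartment sheet, which had entered that sheet by their ratios in these compartments, so that it is a description and no test. EN015040 lay 2.61 log2 units higher in the cardia than in the anterior compartment and 2.34 higher than in the anterior-posterior one. EN016337 lay 2.73 and 2.86 higher. EN015040 was higher on every array of the cardia, at 1.63, 1.51 and 2.25, than on any array of the other compartments. EN016337 had values on only 2 cardia arrays, 1.19 and 1.92, and the first of these was a ratio of 1.000 that 419 features of that array shared. The cardia versus whole arrays correlated with one another between -0.10 and 0.10, and in cardia against posterior midgut the means were -0.37 and -0.26. They belong to 40 and 191 transcripts called in these contrasts, or 0.288% and 1.38% of those tested.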

How the results depend on the processing

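Values are counts of members called and medians of the members. Calls over all transcripts are given only for the centre on all transcripts. The other counts describe the settings and are no result about the proteases. Centred on all transcripts, 2 members were called higher between the sexes and 20 in the anterior-posterior compartment. In the cardia against whole midgut 3 were called higher and 1 lower, and the 3 lower calls in the anterior gave way to 4 higher ones. Over all transcripts, higher calls between the sexes, in the cardia against whole midgut, the anterior and the anterior-posterior compartment numbered 143, 192, 433 and 1098. Lower calls numbered 11, 247, 18 and 58 in the same order. The medians of the members were 0.35 between the sexes, 0.33 in the anterior, 0.93 in the anterior-posterior and 0.28 in the posterior-posterior compartment and -0.064 in cardia against posterior midgut. Without centring, calls in the 4 compartments from cardia to posterior-posterior were 38, 27, 35 and 34, all lower, with medians of -1.17, -0.81, -0.93 and -1.03, and EN020941 and EN015802 turned to -0.10 and -0.18 in the cardia against whole midgut. Tested over the study's gene list only, 2 members were called in the cardia against whole midgut and 4 in the anterior-posterior compartment. With the replicate block, calls were 0 in the cardia against whole midgut, 0 in the anterior, 4 in the anterior-posterior and 1 in cardia against posterior midgut, where EN015802 was lost (limma adjusted p = 0.0585). The arrays share only a number, and the block changed no other count. In the fit without the cardia versus whole arrays, calls were 4 between the sexes, 14 in the anterior and 11 in the anterior-posterior compartment. With the arrays of a comparison alone they were 13 between the sexes, 0 in the cardia against whole midgut, 20 in the anterior, 0 in the anterior-posterior and 0 in cardia against posterior midgut. By the methods' t-test, unadjusted, they were 2, 3, 7, 4, 2 and 6 in the 6 comparisons from male versus female to cardia versus posterior, and 0 in each after adjustment. Without 1 replicate each, calls ranged from 0 to 5 in the cardia against whole midgut, 0 to 18 in the anterior, 0 to 19 in the anterior-posterior and 0 to 0 in cardia against posterior midgut, with the highest counts without replicate 3, and medians ranged from -0.42 to -0.32 between the sexes and from -0.45 to 0.0084 in the anterior-posterior compartment. Requiring values on all 3 arrays, counts stayed within 1.5 times. The 2 contrasts against posterior compartments gave 0 calls in every fit run. The cause of these changes was not tested.

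Every call rests on 3 arrays without a dye swap, on ratios without intensities, and on a centre chosen with earlier results known. No lower call among the members held under the centre on all transcripts. Under that centre EN013534, not called with the centring used here, was called lower in the cardia against whole midgut, at -2.17 (limma adjusted p = 0.0313). It was a compartment sheet member, so that this is a description. Of the calls outside the compartment sheet, EN014152, EN015802, EN013929 and EN016050 held under the centre on all transcripts. Each of them lost the call in the fit of the 3 arrays of its comparison alone. EN014152, EN015802 and EN016050 also lost it when any replicate was left out, and EN013929 without replicate 1 or 2. Without centring EN013929 and EN016050 lost the call.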
